A study of Rattus norvegicus with 81 samples.

Results

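Female Sprague-Dawley rats given methyl paraben (MPB) from postnatal day (PND) 21 to 41 were compared with rats given the vehicle, olive oil, over the same days. The caudal mammary glands were taken at PND 42. The comparison rests on 10 of the 81 arrays of the study, 5 per group, chosen by the treatment and the exposure window in their labels. Methyl paraben is the methyl ester of para-hydroxybenzoic acid, used as a preservative in cosmetics, drugs and food. Both groups were dosed through the milk of treated dams from PND 21 and by gavage from PND 28, the day of weaning, per the labels' protocols. The labels call this window prepubertal and give no dose per animal, so the size of a response cannot be set against an amount.

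The animals of both groups were intact females with no genetic change named in the labels, and each array is labelled with its own animal number. Nothing states whether litters were shared, so p values measure the spread between these animals. Arrays 1, 2 and 3 of each group carry the batch label 1 and arrays 4 and 5 the batch label 2, and all 10 name the same RNA extraction kit. The values are log2 expression values per transcript cluster, on which a difference of 1 is a doubling of the signal. Levels are given as mean ± SD (n = 5 per group), and differences as methyl paraben minus oil ± standard error (SE), fitted with limma with batch as a term. 3 arrays of rats given triclosan over the same days shared the estimate of the spread.

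In the weeks around puberty the rat mammary gland grows from a small tree of ducts into a branched gland. Its ducts have an inner layer of luminal cells, which respond to hormones and later make milk, and an outer layer of basal and myoepithelial cells, which contract. The ducts lie in a fat pad of adipocytes, fibroblasts, vessels and, in the caudal glands, lymph nodes. Estrogen, progesterone, growth hormone and local growth factors such as those of the epidermal, fibroblast and hepatocyte growth factor families drive the branching, and the tips of the growing ducts divide most. In whole tissue, fewer cells of a type and less RNA per cell cannot be told apart.

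Markers of lymph node and muscle differed between the arrays. The arrays correlated at 0.949 to 0.990 over all clusters, and the median of all values was 7.12 to 7.21. The epithelial marker Epcam measured at least 9.83 and adiponectin averaged 12.50 ± 0.37 and 12.75 ± 0.20 in methyl paraben and oil, so markers of epithelium and fat were present on every array. A list score is the mean of the listed genes in an array, each gene centred on the mean of the 10 arrays. The B cell and lymph node score was 1.61, -1.13, 1.99, -1.001 and 1.71 in methyl paraben arrays 1 to 5. It was -0.93, -1.12, -0.90, -0.77 and 0.54 in oil arrays 1 to 5. Arrays 1, 3 and 5 of methyl paraben thus held lymph node transcripts at levels that no oil array reached. They, and 1 triclosan array, are called rich in lymph node transcripts because they stood above the median array of the deposited table. The skeletal muscle score was 3.38 in methyl paraben array 4, 1.71 in oil array 1 and 1.16 in oil array 4, and between -1.05 and -0.70 in the other 7. Those 3, more than 1.5 above the median array, are called rich in muscle. Every value given without the lymph node arrays rests on 2 methyl paraben animals, arrays 2 and 4, against 5 oil animals. The part of these tissues in the results was not tested beyond the values given without those arrays.

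**Figure D1:**
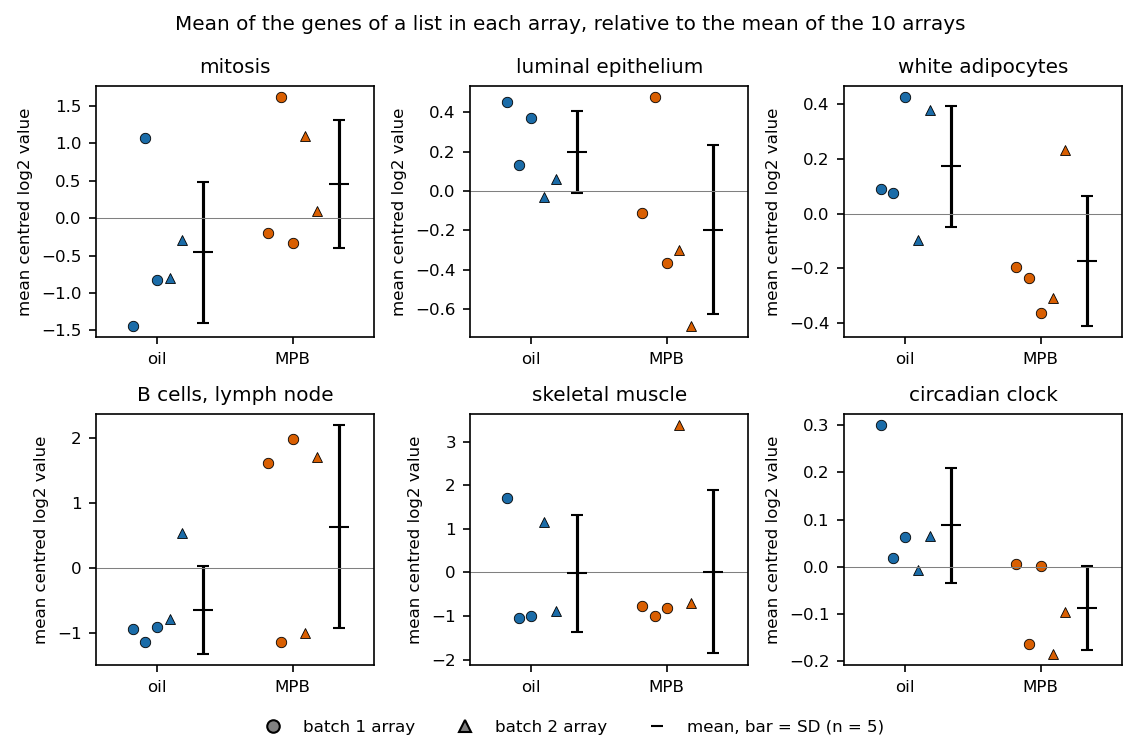
List scores (mean centred log2 value) of 6 gene lists in each array at PND 42, oil on the left and methyl paraben (MPB) on the right of each panel. Circles are batch 1 arrays, triangles batch 2 arrays, and the bars are mean and SD (n = 5). Mitosis scores reach 1.61 in MPB and 1.07 in oil and overlap, while 3 MPB arrays stand at 1.61 to 1.99 in lymph node genes.

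No gene passed an adjusted p of 0.05 among the 18166 tested (0%). The smallest adjusted p was 0.13, for Nr1d1 (limma with Benjamini-Hochberg adjustment). At an unadjusted p under 0.05 there were 1788 genes, where 908.3 would be expected from 18166 tests with no difference. Of these, 540 were higher in methyl paraben (2.97% of the genes tested) and 1248 were lower (6.87%). Genes move together between arrays, so the total can lie far from 908.3 with no difference. Leaving out single arrays moved it from 1047 to 2891. The 5 methyl paraben arrays all lay above the 5 oil arrays for 32 genes (0.176%), and all lay below for 126 (0.694%). How many genes would separate in this way with no difference was not tested, so a lack of overlap is given as a description. Lower values therefore outnumbered higher ones, although the median difference over all genes was only -0.02. By sign alone, 10195 of the 18166 genes were below oil and 43.9% were above it. The counts by sign in the gene lists below are to be set beside that share. On simulated data of the same size, a true shift of 1 on the log2 scale was called for 58 of 67 genes. A shift of 0.5 was called for 32 of 67, and 3 unshifted genes were called. The simulated noise was drawn separately for each gene, whereas real genes move together between arrays. These shares therefore cannot be read as the share of such shifts that the real arrays would reveal.

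The circadian clock gene Nr1d1 had the smallest p of all genes. It encodes REV-ERB alpha, a nuclear receptor that represses Bmal1 and other genes and so links the clock to lipid metabolism. Its level was 8.77, 9.003, 8.92, 9.37 and 9.05 in methyl paraben arrays 1 to 5. In the oil arrays it was 10.34, 10.30, 10.15, 9.67 and 10.01. The groups did not overlap, and the 2 closest arrays, methyl paraben 4 and oil 4, were both of batch 2. The difference was -1.07 ± 0.14 (95% confidence interval -1.39 to -0.76), a ratio of 0.48, with an adjusted p of 0.13. It was -1.36 within batch 1 and -0.63 within batch 2. With batch 1 alone it passed the threshold (adjusted p = 0.022), as it did without methyl paraben array 4 (-1.19, adjusted p = 0.026) or oil array 4 (-1.19, adjusted p = 0.028). Without the arrays rich in lymph node transcripts it was -0.89. The adjusted p of Nr1d1 rose to 0.68 when other single arrays were left out and to 0.999 among the other alternatives.

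Nr1d1 also varied between the other groups of the study. Oil groups averaged 10.28 ± 0.48 after gestational exposure, 9.85 ± 0.50 after PND 1-20, 10.09 ± 0.27 after PND 21-41 and 10.49 ± 0.16 after PND 42-62. Methyl paraben groups averaged 10.20 ± 0.66, 9.97 ± 0.36, 9.02 ± 0.22 and 9.88 ± 0.21 in the same order. The group exposed from PND 21 to 41 had the lowest mean of these 8, and its highest array, 9.37, lay above the lowest array of oil after PND 1-20, 9.08. Thra, which encodes a thyroid hormone receptor and overlaps Nr1d1 on the opposite strand, was looked at after its neighbour's value was seen. It averaged 9.99 ± 0.23 in methyl paraben and 10.29 ± 0.18 in oil (difference -0.31 ± 0.15, adjusted p = 0.51).

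Among the 15 measured clock genes, 6 were lower and 2 were higher at an unadjusted p under 0.05, against 6.87% and 2.97% of all genes, and 0 passed the adjusted threshold. Their median of -0.11 was -0.33 without the lymph node arrays, -0.23 with the muscle and B cell scores in the fit and -0.06 without oil array 1. The clock runs on the activators Clock, Npas2 and Bmal1, which switch on the Per and Cry repressors, the Nr1d repressors and the output factors Dbp and Tef. Per3, a repressor, stood at 8.34 to 8.65 in methyl paraben and at 8.58 to 9.28 in oil (difference -0.42 ± 0.10, adjusted p = 0.51). Npas2 stood at 9.83 to 10.43 and at 10.37 to 11.13 (-0.50 ± 0.14). Tef and Dbp differed by -0.29 ± 0.10 and -0.28 ± 0.09. Among the repressors, Bhlhe41 was lower by -0.47 ± 0.16, while Per1 and Cry1 were higher, by 0.44 ± 0.19 and 0.35 ± 0.16. Ciart, the only other higher member of the list, differed by 0.09. The activators Bmal1 and Clock differed by -0.09 ± 0.09 and -0.11 ± 0.09, within the spread between arrays. The labels name no time of day for the collection of tissue, and its part in these differences was not tested.

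Clock activators bind the E-box CACGTG, so the upstream sequence of Nr1d1 is shown with that motif in capitals. RefSeq (build GRCr8) gives 2 starts for the gene, and the 250 bases before the start at chr10:84229455-84229704, minus strand, hold it once; those before the other start hold none.
Nr1d1: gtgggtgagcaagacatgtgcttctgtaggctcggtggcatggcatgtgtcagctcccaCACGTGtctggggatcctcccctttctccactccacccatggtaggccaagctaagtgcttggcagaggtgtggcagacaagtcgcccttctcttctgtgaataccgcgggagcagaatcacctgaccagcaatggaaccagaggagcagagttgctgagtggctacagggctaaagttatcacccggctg
On either strand the motif was present before 5 of 14 clock genes with a listed promoter (35.7%) and before 7.1% of the 14564 tested genes with one. This describes the sequences, and no binding was measured.

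The genes with the next smallest p values on the lower side were Nid2-ps14, Spry2, Inmt, Or2ak6, Mir29a, Gpihbp1, Cped1, Prtg and Rnf24. Their adjusted p values were all 0.47. Spry2, a feedback inhibitor of receptor tyrosine kinase signalling, was 8.68, 8.68, 8.71, 8.50 and 8.68 in the methyl paraben arrays. In oil it was 9.08, 9.06, 9.23, 9.25 and 9.31. The lowest oil array thus stood above the highest methyl paraben array by more than the SD of either group (0.08 and 0.11), for a difference of -0.54 ± 0.09. Batch 1 gave -0.44 and batch 2 gave -0.69, and leaving out the lymph node arrays gave -0.61. Gpihbp1, which anchors lipoprotein lipase to capillary walls, averaged 9.16 ± 0.44 against 9.74 ± 0.44 (-0.58 ± 0.11). Within batches its groups were apart by -0.59 and -0.58, and both groups stood lower in batch 2 (8.66 to 9.38) than in batch 1 (9.20 to 10.18). Inmt, an enzyme that methylates indoleamines, differed by -0.55 ± 0.10, and Cped1 by -0.60 ± 0.12, both with no overlap between groups. Rnf24, a RING finger protein, differed by -0.86 ± 0.18 and passed the threshold without oil array 2 (-1.05, adjusted p = 0.0056), as did Prtg, a protein of the immunoglobulin superfamily (-0.66 ± 0.13, and -0.77 with adjusted p = 0.046 without that array). Or2ak6, an olfactory receptor gene, differed by -0.44 ± 0.08 at levels near 6.

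**Figure D2:**
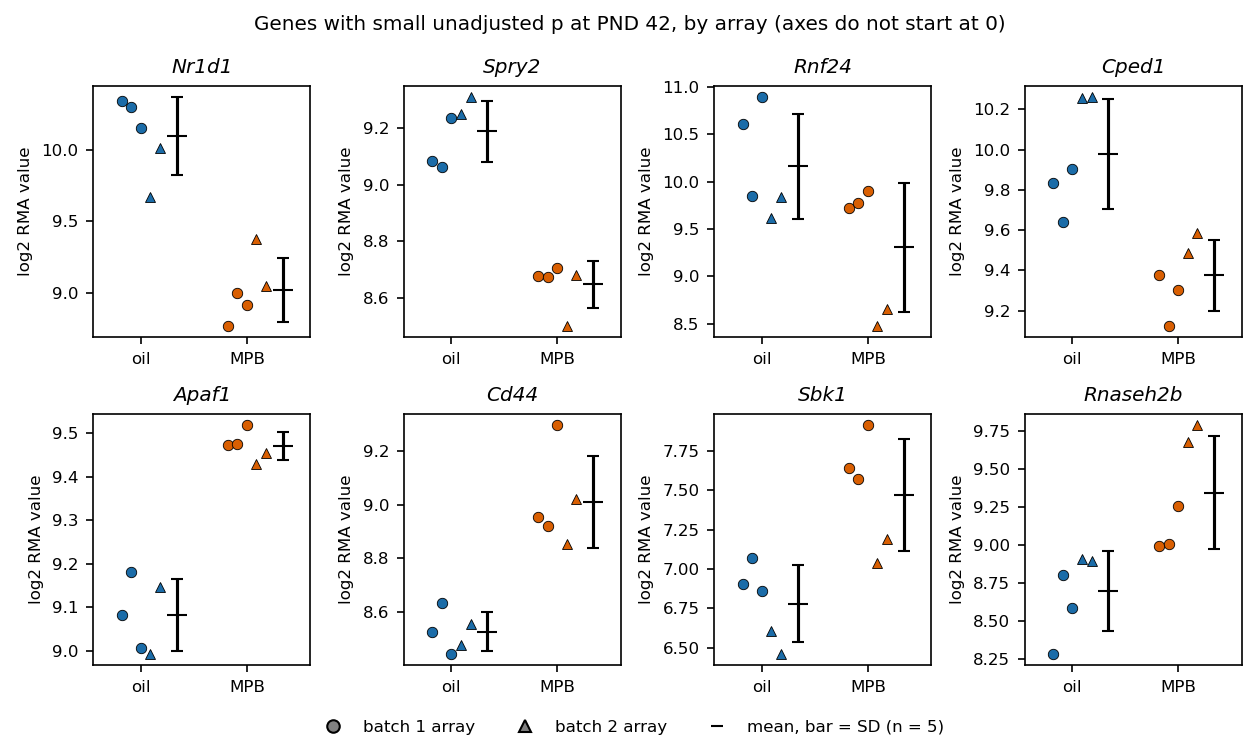
Log2 RMA values of 8 genes in each array at PND 42, oil on the left and methyl paraben (MPB) on the right of each panel, with mean and SD (n = 5). Circles are batch 1 arrays and triangles batch 2 arrays, and the axes do not start at 0. Nr1d1 lies at 8.77 to 9.37 in MPB and 9.67 to 10.34 in oil, and none of the 8 genes passed the adjusted threshold.

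The transcript cluster of Mir29a, a microRNA gene, was at 3.96, 3.87, 3.94, 3.99 and 4.22 in methyl paraben. In oil it was at 4.96, 4.42, 4.37, 5.09 and 4.75. The groups did not overlap, and the difference was -0.72 ± 0.14 at levels well under the array median. The value is that of a cluster named for the gene and cannot be read as the level of either mature form. The mature sequences in RefSeq (GRCr8, hairpin at chr4:60617955-60618042, minus strand) are shown because the seed, bases 2 to 8 and here in capitals, sets which messages a microRNA pairs with.
rno-miR-29a-3p: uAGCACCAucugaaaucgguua
rno-miR-29a-5p: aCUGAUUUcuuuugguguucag
Messages of collagens and other matrix proteins are the best known targets of the miR-29 family. Fibroblast and matrix genes in these arrays had a median difference of -0.21, with 1 of 28 measured genes higher, 4 lower at an unadjusted p under 0.05 (6.87% of all genes) and 0 past the adjusted threshold. That median was -0.07 without the lymph node arrays, -0.33 without the muscle arrays and -0.10 without methyl paraben array 5. Their smallest p values belonged to Timp3, an inhibitor of metalloproteinases (-0.45 ± 0.13), the growth factor receptor Pdgfrb (-0.31 ± 0.11), the metalloproteinase Mmp3 (-0.86 ± 0.36) and decorin, Dcn (-0.24 ± 0.11), each with an adjusted p of 0.51.

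On the higher side, the 10 genes with the smallest p were Apaf1, Vcsa2, Rbmx2, Sbk1, Cd44, Or52n4e, Narf, Rnaseh2b, Or52z14 and Lpcat1, with adjusted p of 0.47 to 0.51. Apaf1, the scaffold of the apoptosome that activates caspases, was 9.47, 9.47, 9.52, 9.43 and 9.46 in methyl paraben. In oil it was 9.08, 9.18, 9.01, 8.99 and 9.15. The methyl paraben arrays were tightly grouped and all above oil, for a difference of 0.39 ± 0.07, which was 0.40 and 0.37 within the batches. Cd44, a hyaluronan receptor of leukocytes and epithelium, was 8.95, 8.92, 9.30, 8.85 and 9.02 against 8.52, 8.63, 8.44, 8.48 and 8.55 (0.48 ± 0.12). Without the arrays rich in lymph node transcripts the difference of Cd44 was 0.36, and that of Apaf1 was 0.37. Rnaseh2b, a subunit of the enzyme that removes ribonucleotides from DNA, averaged 9.34 ± 0.37 against 8.70 ± 0.26 (0.65 ± 0.17) with no overlap. Sbk1, a serine/threonine kinase, differed by 0.69 ± 0.17, and Lpcat1, an enzyme that remodels phospholipids, by 0.30 ± 0.08. Narf, which binds prelamin A, differed by 0.44 ± 0.12 and Rbmx2, an RNA-binding protein of the spliceosome, by 0.42 ± 0.10. Vcsa2 and the olfactory receptor genes Or52n4e and Or52z14 differed by 0.35 to 0.44 at mean levels of 3.04 to 4.49, the low end of the array's range.

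Cell cycle genes were higher in methyl paraben as a group, with 72 of 73 measured genes above oil, 11 of them at an unadjusted p under 0.05, against 2.97% of all genes. Of the 73, 0 passed the adjusted threshold. The median difference was 0.73 over these genes and -0.02 over all genes, 0.62 within batch 1 and 0.93 within batch 2. The groups overlapped for every member, with oil array 2 among the highest arrays. All these lists rest on the same arrays, and the members of a list move together between arrays, so their number adds little to the evidence from 10 animals.

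The genes of mitosis and cytokinesis were higher in 33 of 33 members (median 0.94, range 0.25 to 1.21). Plk1, the polo-like kinase that drives entry into mitosis, was 9.21, 10.87, 9.07, 10.48 and 9.38 in methyl paraben. In oil it was 7.73, 10.21, 8.49, 8.15 and 8.84. Oil array 2 stood above 3 methyl paraben arrays, and the other oil arrays stood below all of them (difference 1.12 ± 0.47, adjusted p = 0.51). Smc4, a condensin subunit that compacts chromosomes, differed by 0.75 ± 0.24, the spindle checkpoint kinase Bub1 by 1.04 ± 0.47 and the kinetochore protein Cenpf by 1.08 ± 0.49. Mki67, the proliferation marker Ki-67, was 10.43, 11.97, 10.33, 11.92 and 11.01 against 8.65, 11.56, 9.55, 10.03 and 10.69. It did not pass (1.04 ± 0.50, adjusted p = 0.51).

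Among cyclins, kinases and their regulators, 17 of 18 stood above oil (median 0.59), 5 of them at an unadjusted p under 0.05 against 2.97% of all genes. The 5 were the phosphatases Cdc25b (0.60 ± 0.21) and Cdc25c (0.66 ± 0.29), which activate the mitotic kinase Cdk1, the repressor E2f8 (0.61 ± 0.26), the mitotic cyclin Ccnb1 (1.16 ± 0.50) and the kinase subunit Cks2 (0.70 ± 0.30). The lower member was Ccnd1, the cyclin of early G1 phase, at -0.10 ± 0.16. DNA replication genes were higher in 22 of 22 members (median 0.42), among them the helicase subunits Mcm3 (0.70 ± 0.29) and Mcm5 (0.75 ± 0.36), topoisomerase Top2a (1.13 ± 0.50) and the ribonucleotide reductase subunit Rrm2 (0.97 ± 0.46). Genes of cell cycle arrest and p53 targets had a median of 0.06, with 7 of 13 higher. In that list Gadd45a, a DNA damage response gene, was lower by -0.54 ± 0.20 and the sestrin Sesn1 higher by 0.42 ± 0.17, while p21 (Cdkn1a) differed by 0.07 ± 0.11.

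The mitosis scores of the single arrays were -0.19, 1.61, -0.33, 1.10 and 0.10 in methyl paraben and -1.44, 1.07, -0.83, -0.80 and -0.30 in oil. The high values belonged to arrays 2 and 4 of methyl paraben and array 2 of oil, none of which was rich in lymph node transcripts. Without the 3 arrays rich in skeletal muscle (methyl paraben 4, oil 1 and oil 4) the mitosis median was 0.30, and without those rich in lymph node transcripts it was 1.91. The 2 methyl paraben arrays left in the latter setting are the 2 with the highest mitosis scores. Without the muscle arrays the median of cyclins and kinases was 0.16 and that of DNA replication genes 0.11. Leaving out single arrays moved the mitosis median between 0.62, without methyl paraben array 2, and 1.40, without oil array 2. The size of the group difference therefore depended on which arrays were kept, while its sign was positive in each of these settings. Across the 13 arrays killed at PND 42 (these 10 and 3 of triclosan), the genes outside the lists most like the mitosis score were Hjurp, Cep55, Cenpi, Fancd2 and Kif15, with r of 0.993 to 0.995 as a description.

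Promoters of mitotic genes often carry the element TTTGAA and several CCAAT boxes, which bind repressor complexes and NF-Y. The 250 bases before the start of Ccnb2, a mitotic cyclin (chr8:79981659-79981908, minus strand, GRCr8), and of Cdc20, the activator of the anaphase-promoting complex (chr5:137255800-137256049, minus strand), are shown as examples of members whose promoters hold both, in capitals on either strand.
Ccnb2: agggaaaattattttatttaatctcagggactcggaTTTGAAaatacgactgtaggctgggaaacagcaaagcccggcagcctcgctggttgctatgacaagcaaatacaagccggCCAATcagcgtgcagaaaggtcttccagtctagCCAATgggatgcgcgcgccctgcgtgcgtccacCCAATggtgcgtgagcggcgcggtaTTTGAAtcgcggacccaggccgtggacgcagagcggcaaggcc
Cdc20: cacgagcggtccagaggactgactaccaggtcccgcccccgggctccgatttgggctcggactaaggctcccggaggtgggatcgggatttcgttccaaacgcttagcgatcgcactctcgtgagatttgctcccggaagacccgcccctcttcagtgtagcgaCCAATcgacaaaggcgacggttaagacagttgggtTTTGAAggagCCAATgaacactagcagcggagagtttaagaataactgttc
Ccnb2 differed by 0.45 ± 0.26 and Cdc20 by 0.72 ± 0.51, neither past the threshold (adjusted p = 0.54 and 0.61). Both motifs together were present before 11 of the 28 mitosis genes with a listed promoter (39.3%) and before 5.6% of the 14564 tested genes with one. A match is a description of the letters and not a bound site.

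Epithelial genes were lower. Of 28 luminal markers 27 were below oil, 12 at an unadjusted p under 0.05 against 6.87% of all genes, with 0 past the adjusted threshold and a median of -0.40. The same 27 were lower in both batches, with medians of -0.30 and -0.54. The smallest p values belonged to Spint1 and Spint2, membrane protease inhibitors (-0.52 ± 0.15 and -0.40 ± 0.13), Gata3, the factor that maintains luminal cells (-0.36 ± 0.12), and the tight junction claudin Cldn4 (-0.50 ± 0.17), each at an adjusted p of 0.51. Gata3 was 11.39, 11.84, 11.30, 11.46 and 11.54 in methyl paraben and 12.04, 11.60, 11.92, 11.84 and 11.96 in oil. Methyl paraben array 2 alone lay inside the oil range, and the other 4 lay below it. Basal and myoepithelial markers were lower in 14 of 14 members (median -0.26), led by the keratin Krt17 (-0.53 ± 0.13) and the oxytocin receptor Oxtr (-0.62 ± 0.19).

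The luminal score was lowest on arrays 3 and 5 of methyl paraben, which had the highest lymph node scores. It was -0.11, 0.48, -0.37, -0.30 and -0.68 in methyl paraben and 0.45, 0.13, 0.37, -0.03 and 0.06 in oil. Over the 13 arrays its correlation with the B cell and lymph node score was -0.67, given as a description of arrays that share tissue. The luminal median was -0.10 without the arrays rich in lymph node transcripts and -0.21 with the muscle and B cell scores in the fit. The basal median was -0.07 and -0.15 in those settings. The median of mitosis genes was 1.48 with both scores in the fit. Methyl paraben arrays 2 and 4 had low lymph node scores and the highest mitosis scores, 1.61 and 1.10. That fit therefore cannot separate mitosis genes from lymph node content.

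Growth and branching signals were lower for most members. Of 36 measured genes 28 were below oil, as were 10195 of all 18166 genes. At an unadjusted p under 0.05, 12 were lower against 6.87% of all genes, and none were higher. The median was -0.27. For 5 of the 36 the groups did not overlap, where 0.694% of all genes lay below oil in that way: the ligands Hgf and Nrg1 and the receptors Met, Egfr and Fgfr1. Hgf, made by the stroma, was 7.82, 7.59, 7.79, 7.65 and 7.78 in methyl paraben against 8.34, 7.95, 8.02, 8.28 and 7.93 in oil (-0.38 ± 0.11). Its receptor Met was 9.38, 9.19, 9.14, 9.31 and 9.23 against 10.02, 9.45, 9.74, 10.04 and 9.57 (-0.51 ± 0.17). Every methyl paraben array was thus below every oil array for both the ligand and its receptor, with adjusted p of 0.51.

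Egfr, the receptor for epidermal growth factor and amphiregulin, was 9.94, 10.42, 10.03, 10.34 and 9.94 against 10.51, 10.48, 10.73, 10.61 and 11.04 (-0.54 ± 0.17). Nrg1, a ligand of the ErbB receptors, was 7.84 to 8.12 against 8.19 to 8.68 (-0.34 ± 0.11), and Fgfr1 was 10.09 to 10.67 against 10.69 to 10.88 (-0.33 ± 0.13). The nearest arrays of the 2 groups lay within 0.1 of each other for Egfr, Fgfr1, Met and Nrg1. Among the other members, Tgfb3, a growth inhibitor, differed by -0.81 ± 0.20 and Id1, a target of bone morphogenetic proteins, by -0.60 ± 0.19, the latter by -0.96 in batch 1 and -0.06 in batch 2. The ligands Areg and Ereg, by contrast, did not differ beyond the spread between arrays, with 0.01 ± 0.42 for Areg, and Fgf7 stood at -0.03 ± 0.20. The median of the list was -0.14 without the arrays rich in lymph node transcripts, -0.17 with the muscle and B cell scores in the fit and -0.15 without methyl paraben array 5.

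**Figure D3:**
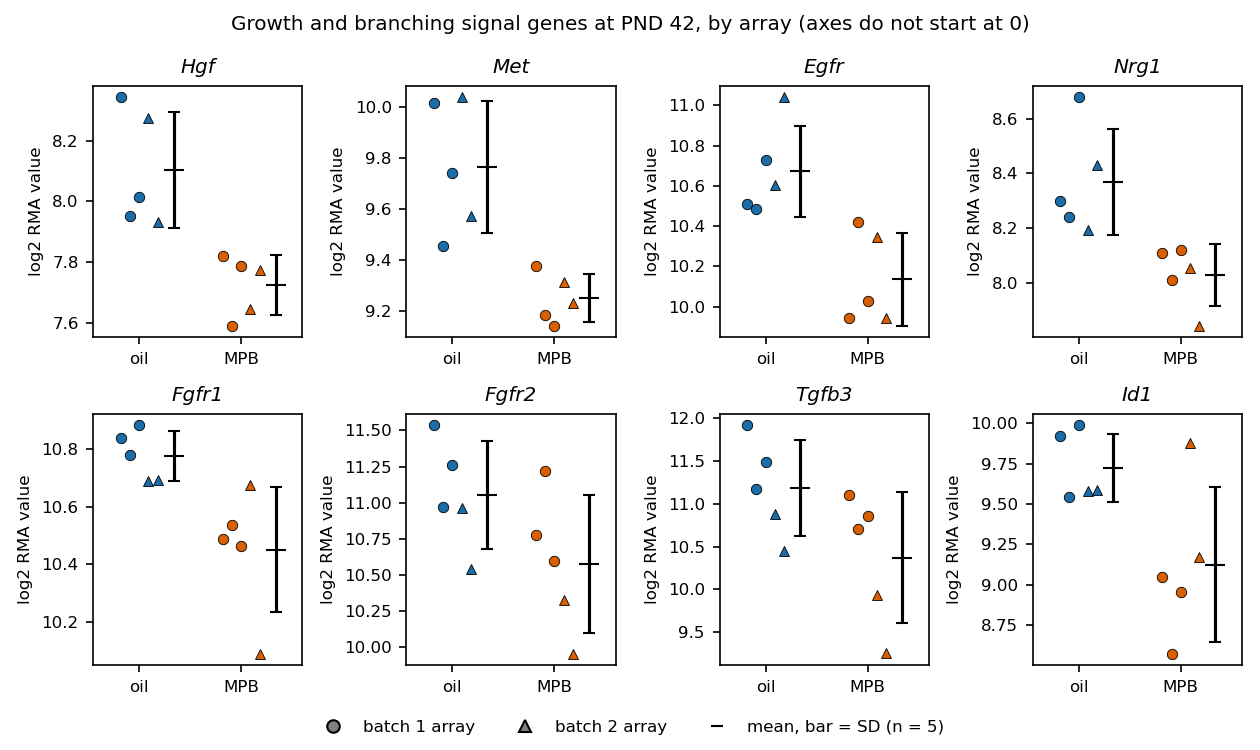
Log2 RMA values of 8 growth and branching signal genes in each array at PND 42, oil on the left and methyl paraben (MPB) on the right of each panel, with mean and SD (n = 5). Circles are batch 1 arrays and triangles batch 2 arrays, and the axes do not start at 0. For Hgf, Met, Egfr, Nrg1 and Fgfr1 every MPB array lies below every oil array, and Fgfr2, Tgfb3 and Id1 overlap.

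Genes of the hormone axes were lower for most members. In the prolactin, growth hormone and IGF axis 19 of 20 were below oil (median -0.23), 7 at an unadjusted p under 0.05 against 6.87% of all genes. The smallest p values belonged to the insulin receptor Insr (-0.46 ± 0.14), the binding protein Igfbp2 (-0.63 ± 0.21), the insulin receptor substrate Irs2 (-0.46 ± 0.16) and the growth hormone receptor Ghr (-0.36 ± 0.13). That median was -0.25 without the arrays rich in lymph node transcripts. Estrogen and progesterone signalling genes had a median of -0.13, with 20 of 26 lower and 5 of those at an unadjusted p under 0.05 (6.87% of all genes). That median was -0.09 without the lymph node arrays, -0.17 without the muscle arrays and -0.08 without oil array 3. Esr1, the estrogen receptor, differed by -0.20 ± 0.20 and Pgr, the progesterone receptor and an estrogen target, by -0.42 ± 0.51. Pgr was 8.52, 10.29, 10.43, 9.10 and 10.48 in methyl paraben and 9.99, 8.63, 11.28, 9.86 and 11.13 in oil, so both groups spanned more than the difference between them. Stc2, a secreted glycoprotein induced by estrogen, was lower by -1.13 ± 0.46, and Nrip1, a corepressor of nuclear receptors, by -0.24 ± 0.10. The stage of the estrous cycle was not given in the sources used here.

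Milk protein and secretion genes were mixed. Of 23 measured genes 18 were lower and 5 were higher (median -0.22, and -0.01 without the lymph node arrays). At an unadjusted p under 0.05, 7 were lower and 2 higher, against 6.87% and 2.97% of all genes, and 0 passed the adjusted threshold. Csn3, kappa casein, was 12.74, 12.01, 11.56, 10.63 and 11.02 in methyl paraben and 12.94, 12.40, 12.48, 12.53 and 12.58 in oil (-0.99 ± 0.32). The batch 2 arrays of methyl paraben were the lowest, and the difference was -0.50 in batch 1 and -1.73 in batch 2. Csn1s1 and Csn2, the alpha and beta caseins, differed by -0.09 ± 0.11 and 0.11 ± 1.15. Pigr, the receptor that carries immunoglobulins into milk, was the 1 member of 23 whose groups did not overlap. Of all genes, 0.176% lay above oil in that way. Pigr stood at 6.50 to 6.86 against 6.22 to 6.50 (0.35 ± 0.12), with array 4 of methyl paraben just above array 5 of oil. Muc15, a mucin, differed by -0.66 ± 0.25 and Xdh, a protein of the milk fat globule, by -0.51 ± 0.21.

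Glycam1, chosen after its values were seen, had the largest difference of all genes. It is a mucin secreted in milk and also made by the high endothelial venules of lymph nodes. Its level was 12.94, 13.34, 13.19, 12.16 and 12.64 in methyl paraben and 8.95, 13.39, 7.67, 7.21 and 11.71 in oil. The methyl paraben arrays were uniform and the oil arrays spread from 7.21 to 13.39, with array 2 above all methyl paraben arrays. The difference of 3.07 ± 1.28 did not pass (adjusted p = 0.51). Arrays 2 and 4 of methyl paraben, which had low lymph node scores, were at 13.34 and 12.16, the highest and the lowest of the 5.

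White adipocyte genes were lower in 22 of 23 members (median -0.37), 9 at an unadjusted p under 0.05 against 6.87% of all genes and 0 past the adjusted threshold. Batch 1 gave a median of -0.46 and batch 2 one of -0.20, and leaving out the lymph node arrays gave -0.39. Aqp7, the channel through which fat cells release glycerol, was 10.46, 10.21, 10.30, 9.74 and 10.60 against 11.004, 10.92, 11.49, 10.41 and 10.96 (-0.70 ± 0.21). Within each batch every methyl paraben array but array 5 lay below the oil arrays. The lipases Lipe and Pnpla2, which break down stored triglyceride, differed by -0.37 ± 0.13 and -0.44 ± 0.16, and Dgat1, which makes it, by -0.40 ± 0.15. Pparg, the nuclear receptor of fat cell formation, stood at 9.34 to 9.91 against 9.78 to 10.43 (-0.46 ± 0.18). Its targets and partners were lower in 18 of 19 members (median -0.30, and -0.36 without the lymph node arrays), led by the lipase inhibitor Angptl4 (-0.63 ± 0.19). Methyl paraben array 5 had a white adipocyte score of 0.23, where the other 4 lay between -0.36 and -0.19.

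Genes of mitochondrial fatty acid oxidation were lower in 23 of 26 members (median -0.18), 10 at an unadjusted p under 0.05 against 6.87% of all genes. Hadhb, a subunit of the trifunctional protein, was 10.14 to 10.40 in methyl paraben and 10.43 to 10.72 in oil, with no overlap (-0.27 ± 0.08). Decr1, a reductase for unsaturated fatty acids, differed by -0.47 ± 0.11, the dehydrogenase Acadl by -0.43 ± 0.12 and the carnitine transferase Cpt1a by -0.37 ± 0.11, each with an adjusted p of 0.51. The median was -0.11 without the lymph node arrays and also -0.11 without methyl paraben array 3 alone. The list median was -0.26 in batch 1 and -0.08 in batch 2. In batch 2, array 4 of methyl paraben and array 4 of oil were both rich in muscle, and its part was not tested. Genes that make fatty acids and cholesterol had a median of -0.13. At an unadjusted p under 0.05 there were 0 of 23, against 2.97% of all genes higher and 6.87% lower. The sign of their median differed between the batches (-0.24 and 0.03) and was positive without the lymph node arrays (0.03). Brown fat genes had a median of -0.04, with Ucp1 at -0.11 ± 0.13.

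Immune genes were highest on the arrays rich in lymph node transcripts. T and NK cell genes were higher in 18 of 20 members (median 1.41) and B cell and lymph node genes in 14 of 15 (median 1.28). Without those arrays the medians were -0.33 and -0.43. The arrays were picked by the B cell and lymph node score and, of the 2 groups compared, lay only in methyl paraben. The T and NK score correlated with that score at 0.99 over 13 arrays. A fall of both medians was therefore fixed by the choice of arrays and is no separate result. Cd3e, of the T cell receptor complex, was 9.73, 7.20, 10.22, 7.01 and 9.88 in methyl paraben against 6.62 to 7.93 in oil (1.64 ± 0.75). Slc7a11, a cystine transporter, followed the same arrays at 9.08, 5.81, 9.49, 5.59 and 9.15 against 5.26 to 6.92 (1.96 ± 0.91) and was chosen after its values were seen. Gzma, a granzyme of cytotoxic cells, stood apart from its list with a lower level (-0.68 ± 0.26), and macrophage genes had a median of 0.09, which was -0.11 without the lymph node arrays.

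Interferon response genes were lower in 17 of 22 members (median -0.24), 6 at an unadjusted p under 0.05 against 6.87% of all genes. The median was -0.23 without the lymph node arrays and -0.14 without oil array 2. Rsad2, the antiviral protein viperin, was 6.96, 6.74, 6.69, 7.00 and 6.67 in methyl paraben and 7.24, 7.47, 7.02, 7.42 and 7.26 in oil. The groups lay next to each other without overlap (-0.47 ± 0.11, adjusted p = 0.51). The antiviral genes Ifit1 (-0.62 ± 0.18), Ifit3 (-0.48 ± 0.16) and Oas1b (-0.44 ± 0.18) followed. Immediate early genes had a median of -0.23, or -0.39 without the lymph node arrays, and of these Fos differed by -0.94 ± 0.28, Egr1 by -0.47 ± 0.14 and Klf4 by -0.47 ± 0.19. Fos was 8.73, 7.76, 8.65, 8.42 and 8.85 against 10.29, 8.74, 9.64, 9.47 and 8.95, with oil arrays 2 and 5 inside or next to the methyl paraben range.

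Enzymes of xenobiotic metabolism were lower in 19 of 23 members (median -0.18), 7 at an unadjusted p under 0.05 against 6.87% of all genes. The flavin monooxygenase Fmo1 stood at 9.83 to 10.24 against 10.24 to 10.83 (-0.50 ± 0.13), the epoxide hydrolase Ephx1 differed by -0.52 ± 0.14, the cytochrome P450 Cyp4b1 by -0.50 ± 0.17 and the sulfotransferase Sult1a1 by -0.42 ± 0.16. Cyp1a1, the usual reporter of the aryl hydrocarbon receptor, differed by -0.09 ± 0.08. The median of the list was -0.08 without the arrays rich in lymph node transcripts and -0.26 without those rich in muscle. Endothelial genes were lower in 14 of 15 members (median -0.21), with -0.29 in batch 1 and 0.03 in batch 2. That median was -0.17 without the lymph node arrays, -0.33 without methyl paraben array 4 and -0.12 without methyl paraben array 2. Sox17, a factor of arterial endothelium, was lower by -0.34 ± 0.13 and the VEGF receptor Flt1 by -0.32 ± 0.13.

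Other lists had medians between -0.16 and 0.17. They were -0.13 for oxidative stress, -0.12 for mast cells, -0.11 for lymphatic endothelium, -0.16 for nerve and Schwann cells, -0.09 for inflammation, complement and acute phase, -0.07 for the glucocorticoid response, -0.04 for heat shock and endoplasmic reticulum stress, -0.06 for erythroid cells, -0.04 for skin and hair follicle and 0.17 for plasma cells. Without the lymph node arrays 3 of these turned sign, to 0.07 for oxidative stress, 0.03 for heat shock and -0.12 for plasma cells. In that setting nerve genes stood at -0.06, inflammation genes at -0.19 and lymphatic endothelium at -0.19. The plasma cell median was 0.29 in batch 1 and -0.11 in batch 2. Within them Cfb, a complement factor, was lower by -0.44 ± 0.14, the small heat shock protein Hspb1 by -0.57 ± 0.18 and Kit, a receptor of mast cells and luminal progenitors, by -0.69 ± 0.26. Fkbp5, a glucocorticoid-induced cochaperone, was higher by 0.44 ± 0.20. None of these passed the adjusted threshold.

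**Figure D4:**
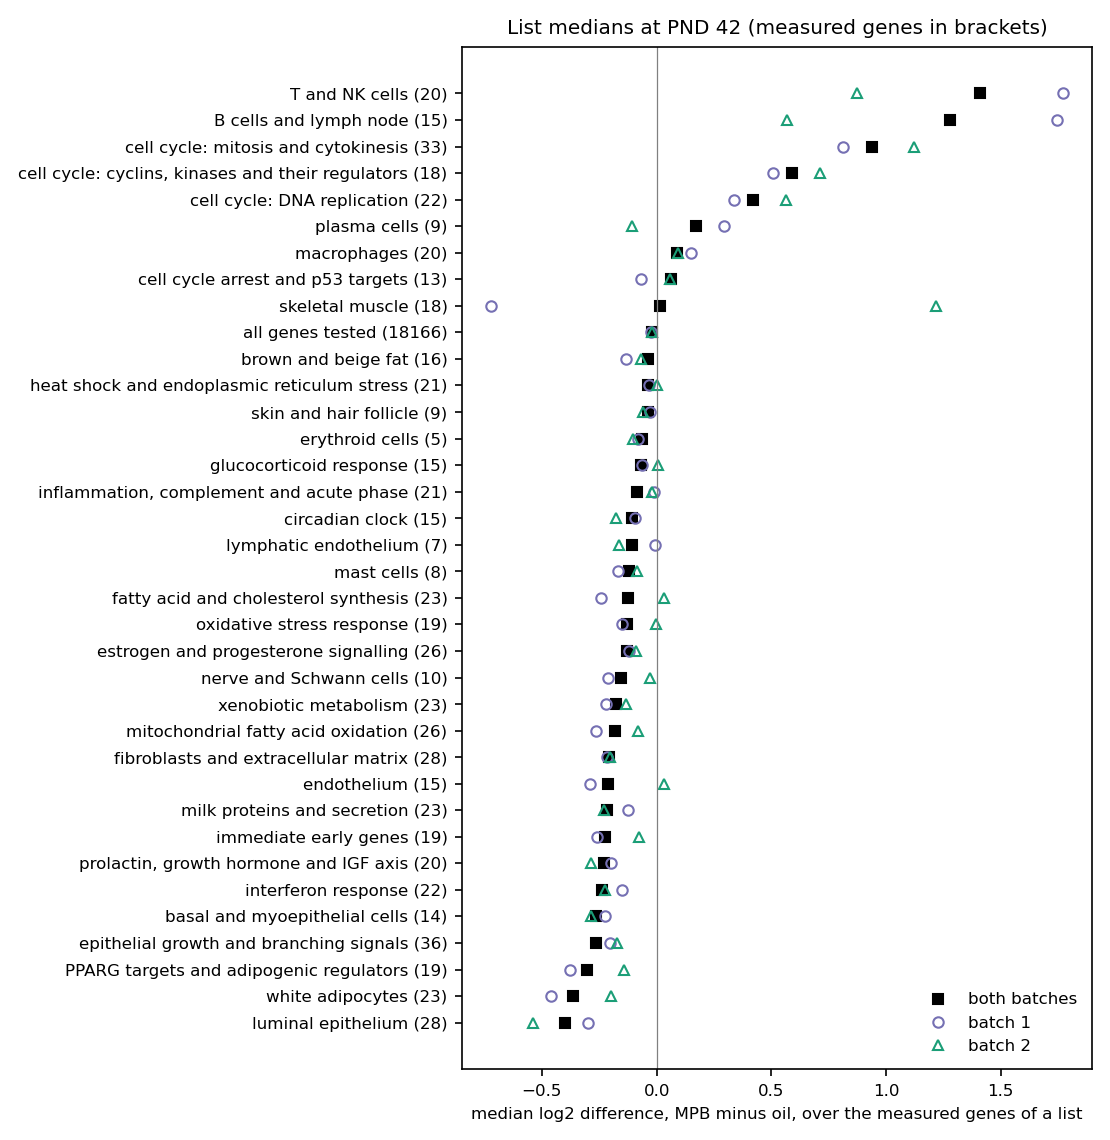
Median log2 difference (methyl paraben, MPB, minus oil) over the measured genes of each list at PND 42, for both batches together (squares), batch 1 (circles) and batch 2 (triangles). Cell cycle lists stand at 0.42 to 0.94 and luminal genes at -0.40 with the same sign in both batches, while skeletal muscle genes stand at -0.72 and 1.22 in the batches.

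Whether these differences were particular to exposure from PND 21 to 41 was tested against the neighbouring windows of methyl paraben. In the later window rats were exposed from PND 42 to 62 and killed at PND 63, and in the earlier one they were exposed through milk from PND 1 to 20 and killed at PND 21, with 5 methyl paraben and 5 oil arrays each. The difference of effects passed the adjusted threshold for 0 genes against the later window (0%) and for 0 against the earlier one (0%), with 1427 and 919 genes at an unadjusted p under 0.05 (limma). Age at killing differed between the windows together with exposure, so age and exposure window cannot be told apart.

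Apaf1 had the smallest p of the difference against the later window, where its effect was -0.16 ± 0.06 and the difference of effects 0.55 ± 0.09 (adjusted p = 0.19). Next were Ins2 (0.76 ± 0.14, adjusted p = 0.25), Cdx1 (0.52 ± 0.10) and the interferon gene Rtp4 (0.98 ± 0.19). The effect on Nr1d1 was -0.61 ± 0.14 after PND 42-62 (difference -0.46 ± 0.19, adjusted p = 0.63) and 0.12 ± 0.18 after PND 1-20 (difference -1.19 ± 0.26, adjusted p = 0.88). Nr1d1 was thus below oil in both windows that ended after weaning and not in the milk window, a contrast that did not pass. Spry2 differed from oil by -0.14 ± 0.11 after PND 42-62 and by -0.09 ± 0.13 after PND 1-20. Met differed by -0.29 ± 0.14 and 0.12 ± 0.14, and Egfr by -0.16 ± 0.11 and -0.06 ± 0.14.

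The list medians of the windows are given side by side as a description. Mitosis genes had medians of -0.13 after PND 1-20, 0.94 after PND 21-41 and -0.01 after PND 42-62. The difference of effects had an unadjusted p under 0.05 for 0 of 33 mitosis genes against the later window and for 2 of 33 against the earlier one, with 0 past the adjusted threshold. Over all 18166 genes these unadjusted counts were 1427 and 919. DNA replication genes were higher in the later window as well, with 22 of 22 members above oil and a median of 0.73. Luminal genes had medians of -0.19, -0.40 and 0.03, and white adipocyte genes of -0.05, -0.37 and -0.22. Interferon genes had -0.06, -0.24 and -0.80. Of these, 15 of 22 had a difference against the later window at an unadjusted p under 0.05 (1427 of all 18166 genes), none past the adjusted threshold. The interferon score after PND 42-62 was 0.85 ± 0.33 in oil and 0.01 ± 0.11 in methyl paraben. Oil averaged -0.11 after gestational exposure, -0.07 after PND 1-20 and 0.08 after PND 21-41, so the oil group of the later window stood apart. B cell and lymph node genes had 0.18, 1.28 and 0.48. Against either window 0 of 15 differences had an unadjusted p under 0.05 (over all genes 1427 later and 919 earlier).

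**Figure D5:**
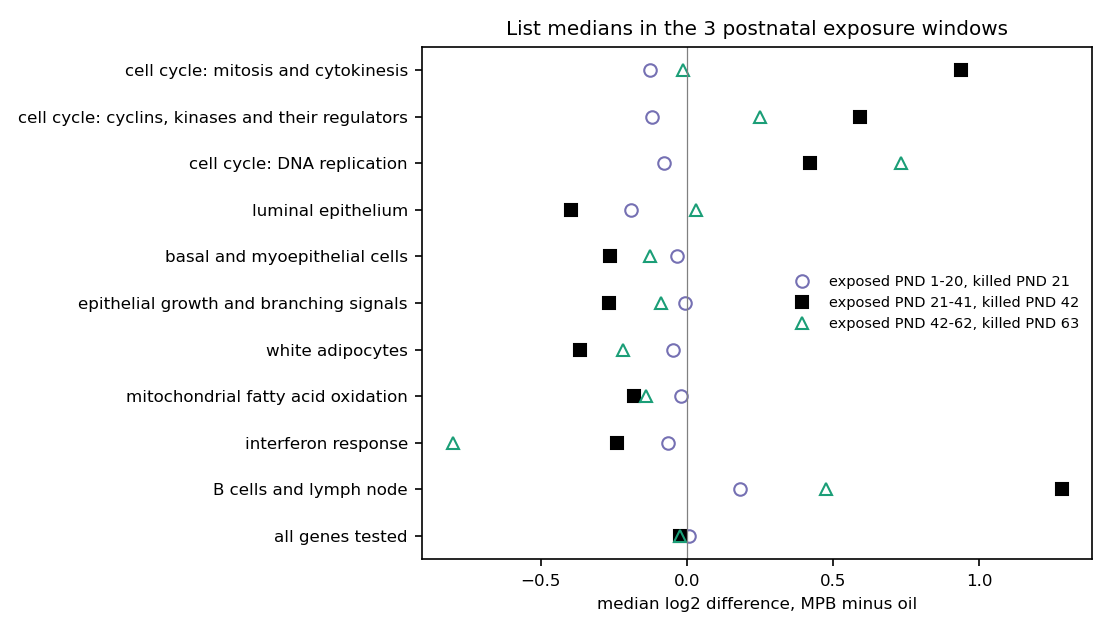
Median log2 difference (methyl paraben, MPB, minus oil) of 10 gene lists and of all genes tested in 3 postnatal exposure windows, each with 5 MPB and 5 oil arrays. Mitosis genes stand at 0.94 after PND 21-41 and at -0.13 and -0.01 in the windows before and after, and the differences between windows passed the adjusted threshold for 0 genes.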

How the data were processed

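From 250 ng of total RNA with an integrity number of at least 7, the authors made arrays and deposited their RMA output on a log2 scale. RMA and Affymetrix Expression Console are named per the submitters' processing notes, without a version or a build. RMA corrects background, normalizes quantiles and summarises probes, which can shrink differences. The values covered 36685 transcript clusters, of which 18511 carried 1 gene symbol, 575 several and 17599 none in the annotation of the platform. Of the named clusters 18394 matched an Entrez identifier of the reference table. The cluster with the highest mean stood for each gene, and no gene was left out for a low level. Of the 752 list entries, those measured are counted beside each list.

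The 13 arrays killed at PND 42 were fitted with limma 3.58.1 in R 4.3.3 (package data.table, version 1.17.8), with batch as a term and 9 residual degrees of freedom. Tests were 2-sided, adjusted by Benjamini-Hochberg over 18166 genes at 0.05. The differences between windows were contrasts over 20 arrays. Figures used matplotlib 3.10.9 in Python 3.11.15. The number of arrays limits the precision. The fit was tested on simulated data. The named genes were all those past the threshold and, since there were none, the 10 with the smallest p in each direction, and up to 4 members of each list with the smallest p. Members and lists were chosen with earlier results of these data known. Leaving out arrays rich in lymph node transcripts was chosen after seeing the data. The alternatives were other arrays, batch terms, filters, normalizations and covariates, and a second RMA table that the authors deposited for the MPB and oil arrays.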

Additional observations from a re-analysis of the deposited data

Results flagged for a closer look

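The 20 genes with the smallest p and the 35 list scores in each treatment gave 110 groups of 5 arrays. Of these groups 12 held an array whose gap to the nearest other, divided by the range of the 5, exceeded Dixon's 95% critical value of 0.71. Chance gives about 1 in 20.

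Methyl paraben array 4 was apart in 4 of them. It was lowest in Spry2 (8.502, the others 8.68 to 8.71) and highest in the scores of skeletal muscle (3.375, the others up to -0.70), of fibroblasts and matrix (0.2701, the others up to -0.16) and of nerve and Schwann cells (0.158, the others up to -0.11).

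Methyl paraben array 2 was lowest in Or52n4e (3.202, the others from 3.41) and in the macrophage score (-0.4968, the others from 0.16). Methyl paraben array 5 was highest in the white adipocyte score (0.2325).

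Oil array 2 was highest in the score of cyclins and kinases (0.8853, the others up to -0.39) and lowest in that of lymphatic endothelium (-0.2519, the others from 0.04). Oil array 5 was highest in the scores of B cells and lymph node (0.5423, the others up to -0.77) and of T and NK cells (0.08313, the others up to -0.70). Oil array 1 was highest in the circadian clock score (0.3, the others up to 0.06).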

How the results depend on the processing

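No gene passed in the comparison with oil under 11 of the 12 alternatives other than leaving out single arrays. With batch 1 alone 1 gene passed, Nr1d1. Leaving out single arrays gave 0 to 8 genes. The 8, without oil array 2, were Clca5, Elapor1, Mir145, Prtg, Rad54b, Rnd3, Rnf24 and Trib1, all lower, and without methyl paraben array 4 or oil array 4 only Nr1d1 passed. Both window differences gave 0 genes under every alternative run. Genes at an unadjusted p under 0.05 numbered 747 with batch 2 alone, 801 with batch 1 alone, 1151 without a batch term, 1368 with both tissue scores as covariates and 2036 with the 10 arrays alone, against 1788. Leaving out single arrays moved that number from 1047, without methyl paraben array 5, to 2891, without methyl paraben array 4. Of the 20 named genes, picked for small p on these same arrays, none changed sign under the alternatives run, which such a choice favours. The cause of these shifts was not tested.

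The mitosis median was 1.91 without the arrays rich in lymph node transcripts, an alternative chosen after seeing the data. That of growth and branching signals was -0.14 there, -0.17 with batch 2 alone, -0.17 with the tissue covariates and -0.30 to -0.15 when single arrays were left out. That of clock genes was -0.33 without the lymph node arrays and -0.23 with the covariates. No paired analysis was possible because the animals of the compared groups carry different numbers in the labels.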
